A study of Sus scrofa with 12 samples.

Results

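The insulin-like growth factor (IGF) and insulin system was followed in the uterus of newborn gilts (young female pigs) across birth, nursing and milk replacer feeding. Its members were taken from a list of 10 genes: the ligand gene IGF1, the receptor genes IGF1R, IGF2R and INSR, the adaptor gene IRS1 and the genes of the binding proteins IGFBP2 to IGFBP6. A member was found by its symbol in the deposited table or, for IRS1, which the table lists under a placeholder as "insulin receptor substrate 1-like", by its gene identifier in RefSeq. This gave 9 of the 10 genes, out of 20390 entries in the table, and IGFBP2 was not analysed here. A further 5 placeholder entries are described in the table as like IGF1, IGF1R or INSR, and their values are given beside those genes.

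The study compared 3 groups of 4 gilts, 1 uterine library per gilt, all crosses of Duroc, Hampshire, Landrace and Yorkshire pigs and with no drug or genetic change named in the labels. PND0 (postnatal day 0) gilts were sampled within 1 h of birth and had not nursed. PND2N gilts had nursed freely for 48 h and PND2R gilts had been fed a commercial milk replacer for 48 h, and both were sampled at 50 h of age. The tissue was whole uterus freed of connective tissue, so that fewer cells of a type and less RNA per cell cannot be told apart. Values are the authors' normalized values on a linear scale, with 1 as the lowest. They are not known to be corrected for gene length, so levels are compared between libraries and not between genes. Changes are log2 changes ± SE from 1 limma fit of log2(value + 1) over all 12 libraries, and a gene is said to have risen or fallen when its Benjamini-Hochberg adjusted p over the 16862 genes tested was under 0.05. All 9 members passed the filter on low values.

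IGF1 and IGF2 are growth-promoting hormones made by the liver and by many tissues, and in the uterus IGF1 is made mainly by stromal cells and acts on the epithelium. Both signal through the IGF1 receptor, insulin signals through the related insulin receptor, and both receptors pass the signal on through IRS adaptors to PI3 kinase, AKT and mTOR. The IGF2 receptor carries IGF2 to lysosomes, and the binding proteins hold IGFs outside the cell and set how much reaches the receptor.

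Of 6 matched uterine markers of 7, HOXA10, HOXA11 and EMX2 had values of at least 3467.9, 3827 and 4695 in every library. The others varied more. PGR was 256 to 408 at birth, 14.1 to 188 with nursing and 37.4 to 146 with replacer. WNT7A was 870 to 7545, 4384 to 8633 and 5360 to 6309, and HOXA13 was 1.15 to 15.6, 3.53 to 83.4 and 14.1 to 56.9. In 3 day 2 libraries, PND2N 1, PND2R 2 and PND2R 3, the muscle filament gene DES stood at 40049, 33144 and 29022, against 7460.1 to 23440 in the other 9. In these 3 libraries the summed level of 10 matched smooth muscle markers of 11 was 378828, 302595 and 299483, and that of 9 stromal markers of 10 was 330500, 361348 and 289755, with no marker of either list below 10 in every library. The smooth muscle sums were 175653 to 248960 at birth, 159278 to 378828 with nursing and 194173 to 302595 with replacer, and the stromal sums were 391017 to 526116, 330500 to 612816 and 289755 to 484831. The lists did not move as one in these libraries. Of the smooth muscle markers, 6 lay above the other 5 day 2 libraries (DES, ACTA2, CNN1, TAGLN, SMTN and LMOD1) and 3 lay below them (MYLK, SYNPO2 and CALD1), with MYLK, the myosin light chain kinase gene, at 792 to 1366 against 3182 to 7138. Of the stromal markers, 7 lay below and 1, THY1, above. The same 3 libraries had the highest totals of normalized values, 28354031 to 29544130 against 26534074 to 27899130 in the other 9. They also had the highest share of entries at the lowest value, 21.3% to 22.1% against 17.8% to 20.4%. Several members also differed between these 3 libraries and the other 5 of day 2. Other lists held such genes too. Of the endothelial markers 1 lay above, 2 lay below and 7 overlapped, and of the epithelial markers 1 lay below and 8 overlapped. The share of all genes tested that split in this way was not counted, so the split is not read as particular to the members. The members' values stand beside the results they touch, and the part of any of these library features in them was not tested.

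The receptor and adaptor genes were lower on day 2 than at birth with either feeding. In nursed gilts 3 of the 9 members fell (IGF1R, IGF2R and IRS1) and none rose, where 1.41% of all genes tested were called lower and 1.91% higher. In replacer-fed gilts 5 of 9 fell (these 3, INSR and IGFBP4) and none rose, where 7.31% of all genes were called lower and 7.7% higher. The median log2 change of the members was -0.60 in PND2N and -0.84 in PND2R, against -0.035 and -0.055 over all genes tested. Each of IGF1R, IGF2R, INSR, IRS1 and IGFBP4 had its 8 day 2 values below its 4 newborn values. Taken 1 day 2 group at a time, 5 of the 9 members lay below birth without overlap in each comparison. The same was found for 7.88% of all genes in PND2N and 15.6% in PND2R. The share of all genes with all 8 day 2 values below the 4 newborn ones was not counted. The comparisons with birth share the 4 newborn libraries, so they are not independent of each other.

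**Figure D1:**
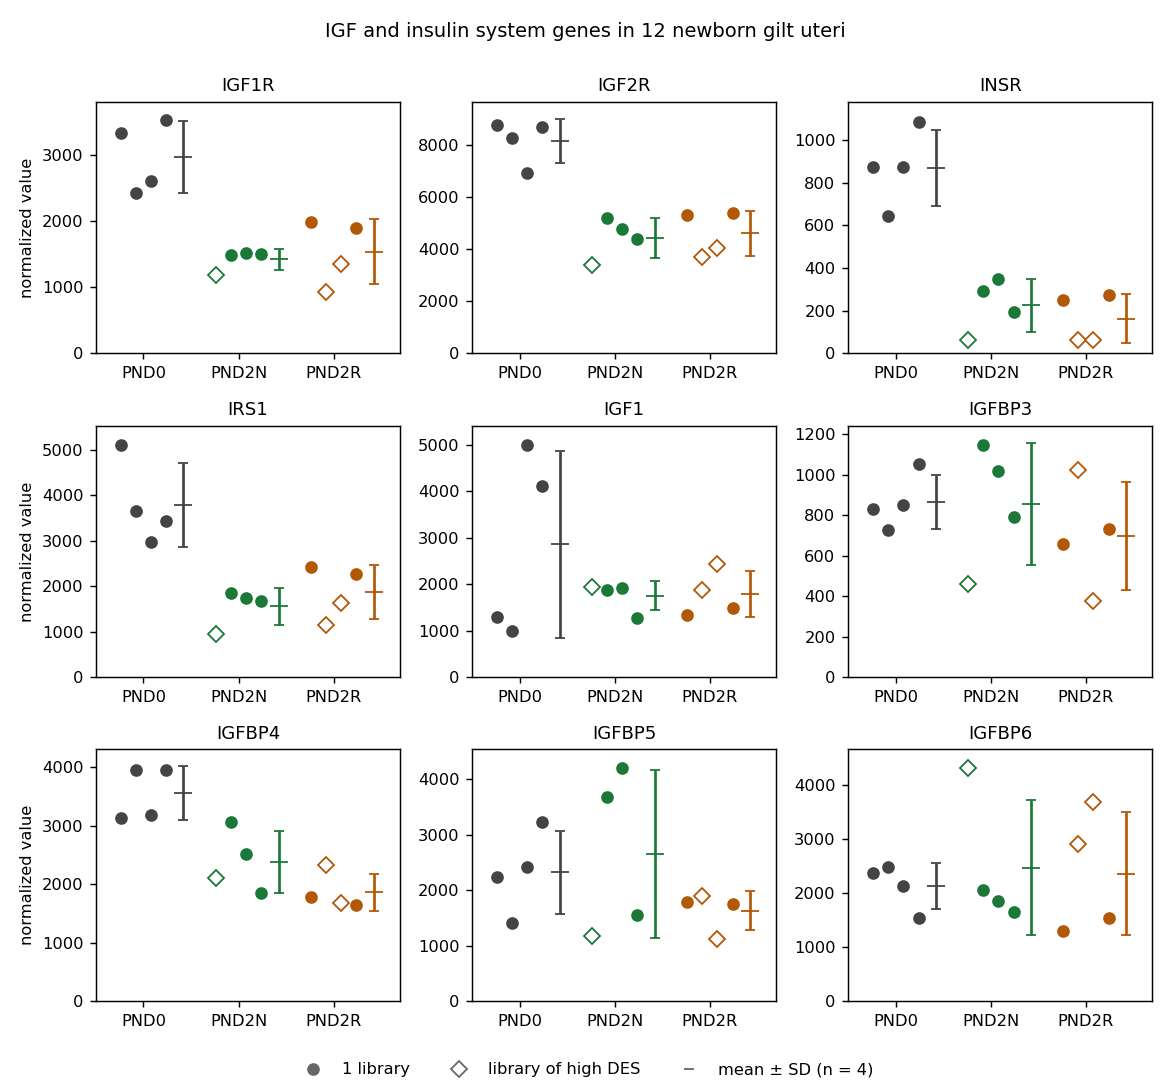
Normalized values of the 9 measured members in each library (vertical axes, linear and starting at 0) by group, with open diamonds for the 3 day 2 libraries of highest DES and a bar for mean ± SD of 4 gilts. IGF1R, IGF2R, INSR, IRS1 and IGFBP4 have all 8 day 2 libraries below the 4 newborn ones, while IGF1, IGFBP3, IGFBP5 and IGFBP6 overlap between birth and day 2.

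IGF1R encodes the tyrosine kinase receptor for IGF1 and IGF2 (chromosome 1, 143851692 to 144145063 on Sscrofa10.2, minus strand). Its values were 3327, 2419, 2597 and 3524 in PND0 1 to 4, then 1184, 1486, 1516 and 1499 in PND2N 1 to 4, and 1975, 922, 1346 and 1890.4 in PND2R 1 to 4. The lowest newborn value lay above the highest day 2 value. Group means went from 2967 ± 541 (SD, n = 4) at birth to 1421 ± 159 in nursed and 1533 ± 494 in replacer-fed gilts. IGF1R fell by 1.05 ± 0.24 on the log2 scale in PND2N (adjusted p = 0.0368) and by 1.00 ± 0.24 in PND2R (adjusted p = 0.0220).

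The entry LOC100623048, described as IGF1 receptor-like (chromosome 1, 144234268 to 144287191, plus strand), lies 89204 bases beyond IGF1R. It read 593, 495, 449 and 534 at birth, 165, 151, 178 and 218 in PND2N 1 to 4, and 210.1, 210.4, 237 and 230.4 in PND2R 1 to 4. The day 2 values were close together, and the 3 libraries of high DES overlapped the other 5 of day 2 (165 to 237 against 151 to 230.4). IGF1R, by contrast, was lowest in those 3 libraries (922 to 1346, against 1486 to 1975 in the other 5). The entry fell by 1.54 ± 0.20 in PND2N (adjusted p = 0.00883) and by 1.21 ± 0.20 in PND2R (adjusted p = 0.00724). Both calls held whichever of the 12 libraries was left out. The PND2N call ended when only the PND0 and PND2N libraries were in the fit (adjusted p = 0.0697). The files do not say whether this entry is part of IGF1R or another gene.

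IGF2R encodes the receptor that binds IGF2 and mannose 6-phosphate and delivers them to lysosomes (chromosome 1, 8219419 to 8322433, minus strand). It stood at 8759, 8291, 6917 and 8696 in the newborn libraries, 3411, 5183, 4786 and 4390.1 in PND2N 1 to 4, and 5310.4, 3709, 4050 and 5396 in PND2R 1 to 4. Every day 2 library was below every newborn one, and the 3 libraries of high DES were the lowest 3. The means were 8166 ± 858, 4443 ± 760.3 and 4616 ± 863. IGF2R fell by 0.89 ± 0.17 in PND2N (adjusted p = 0.0255) and by 0.84 ± 0.17 in PND2R (adjusted p = 0.0138).

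INSR, the insulin receptor gene (chromosome 2, 59938630 to 60003872, plus strand), had the largest difference from birth of the 9 members. Its values were 874, 642, 876 and 1083 at birth. They were 64.3, 294, 348 and 196 in PND2N 1 to 4, and 251, 60.4, 64.7 and 272 in PND2R 1 to 4. All day 2 libraries were below all newborn ones, and the 3 libraries of high DES formed a lower set of their own, at 60.4 to 64.7 against 196 to 348 in the other 5. Means were 869 ± 180.2, 226 ± 125 and 162 ± 115. INSR fell by 2.73 ± 0.60 in PND2R (adjusted p = 0.0175). In PND2N its change was -2.17 ± 0.60 and did not pass (adjusted p = 0.0673). Without the 3 libraries of high DES it was -1.65 in PND2N (adjusted p = 0.0301) and -1.71 in PND2R (adjusted p = 0.0327), past the threshold in both. INSR also passed in PND2N under quantile normalization (-2.08, adjusted p = 0.0320).

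A second entry, LOC100526036, described as insulin receptor-like, ends 85 bases before INSR on the same strand (chromosome 2, 59911262 to 59938544). It read 662, 422, 525 and 702 at birth, 23.9, 252, 206 and 103 in PND2N 1 to 4, and 221, 23.0, 29.2 and 204 in PND2R 1 to 4. The same 3 libraries were lowest in this entry as in INSR. It fell by 2.90 ± 0.84 in PND2R (adjusted p = 0.0396) and had a change of -2.40 ± 0.84 in PND2N (adjusted p = 0.120). Without the 3 libraries of high DES these became -1.41 (adjusted p = 0.0812) and -1.69 (adjusted p = 0.0417). The PND2R call was also lost without any 1 newborn library, PND2N 4, PND2R 2 or PND2R 3 (adjusted p up to 0.120). The files do not say whether both entries stand for 1 receptor gene.

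Of the other insulin receptor-like entries, LOC100522600 did not follow INSR, and LOC100627985 was too near the lowest value to tell. LOC100522600 (chromosome 2, 59848666 to 59849010, minus strand) ran from 1166 to 1983 at birth, 939.6 to 2893 in PND2N and 1679 to 3388 in PND2R, with the 3 libraries of high DES the highest on day 2. Its change was 0.23 ± 0.35 in PND2N (adjusted p = 0.695) and 0.63 ± 0.35 in PND2R (adjusted p = 0.206). LOC100627985 was at most 2.31 in every library. The IGF1-like entry LOC100627010 was listed at 1 in all 12 libraries.

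**Figure D2:**
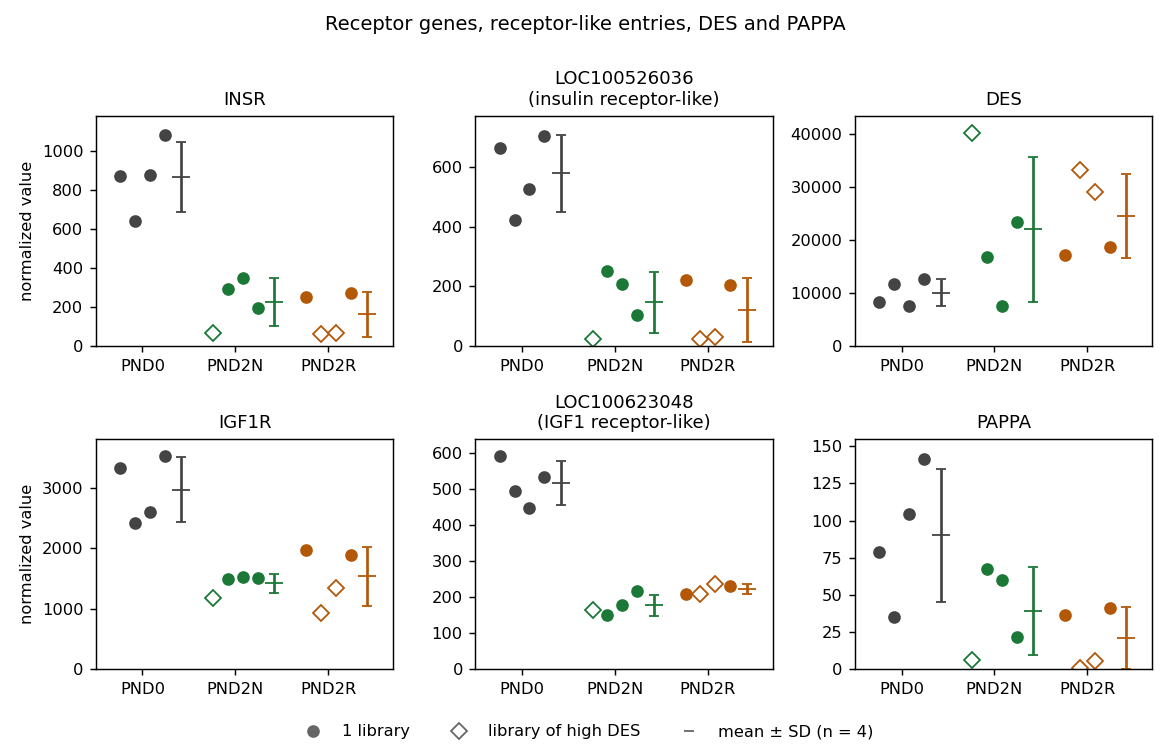
Normalized values by library (vertical axes, linear and starting at 0) for INSR and IGF1R, a receptor-like entry beside each, DES and PAPPA, a protease of IGF binding proteins; bars give mean ± SD of 4 gilts. INSR, its neighbouring entry and PAPPA are lowest in the 3 libraries of highest DES (open diamonds), while the IGF1 receptor-like entry is not.

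IRS1 encodes the adaptor that both receptors phosphorylate and that recruits PI3 kinase (chromosome 15, 137284020 to 137346055, minus strand). It measured 5117, 3658, 2975 and 3432 in PND0 1 to 4, 959.6, 1854, 1743 and 1675 in PND2N 1 to 4, and 2421, 1148, 1633 and 2277 in PND2R 1 to 4. Again no day 2 library reached the newborn range, and the 3 libraries of high DES were the lowest, at 959.6 to 1633 against 1675 to 2421. The means were 3796 ± 926, 1558 ± 406 and 1870.04 ± 591. IRS1 fell by 1.30 ± 0.28 in PND2N (adjusted p = 0.0330) and by 1.05 ± 0.28 in PND2R (adjusted p = 0.0298).

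Most of these calls were lost in some fits that left out 1 library, although the direction held in every fit. With a library left out, the PND2N changes ran from -1.14 to -0.96 for IGF1R, -1.41 to -1.08 for IRS1 and -0.97 to -0.77 for IGF2R. The PND2R changes ran from -1.14 to -0.77 for IGF1R, -3.09 to -2.37 for INSR, -1.20 to -0.84 for IRS1 and -0.92 to -0.74 for IGF2R. In PND2N, the IGF1R call ended without PND0 1, 3 or 4, PND2N 1, 2 or 4, or PND2R 3 or 4 (adjusted p up to 0.107), the IRS1 call without any 1 newborn library, PND2N 1, 2 or 4, or PND2R 4 (up to adjusted p = 0.0974), and the IGF2R call without PND0 1 or 4 or PND2N 1 or 4 (up to adjusted p = 0.0900). All 3 ended with only the PND0 and PND2N libraries in the fit, but held with the 3 libraries of high DES dropped (adjusted p = 0.0338, adjusted p = 0.0338 and adjusted p = 0.0367 for IGF1R, IRS1 and IGF2R). In PND2R, the IGF1R and INSR calls ended without PND0 4, PND2R 2 or PND2R 3 (up to adjusted p = 0.0689 and adjusted p = 0.0594) and the IRS1 call without PND0 1 or 4 or PND2R 2 or 3 (up to adjusted p = 0.0895), while IGF2R held whichever library was left out. Without the 3 libraries together 9 are left, with PND2R 1 and PND2R 4 the only replacer-fed ones. The PND2R changes were then -0.60 for IGF1R (adjusted p = 0.116), -0.60 for IGF2R (adjusted p = 0.0765) and -0.66 for IRS1 (adjusted p = 0.118). The part of smooth muscle, stroma or other cells in these changes was not tested. Beside them, 10 matched endothelial markers of 11 summed to 14247 to 20599.5 at birth, 11794 to 16980.3 with nursing and 10581 to 12547 with replacer, with none below 10 in every library. The 8 matched leukocyte and macrophage markers of 10 summed to 4575 to 9522, 9833 to 12423 and 9135 to 12497, with only CD14 below 10 in every library. Neither list moved as one in its group means. Of the endothelial markers, KDR, EGFL7 and ESAM were higher with either feeding than at birth, TEK was lower only with replacer, and the rest were lower with both. Of the leukocyte and macrophage markers, CSF1R and CD14 were lower with both, PTPRC was lower only with replacer, and the rest were higher with both.

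**Figure D3:**
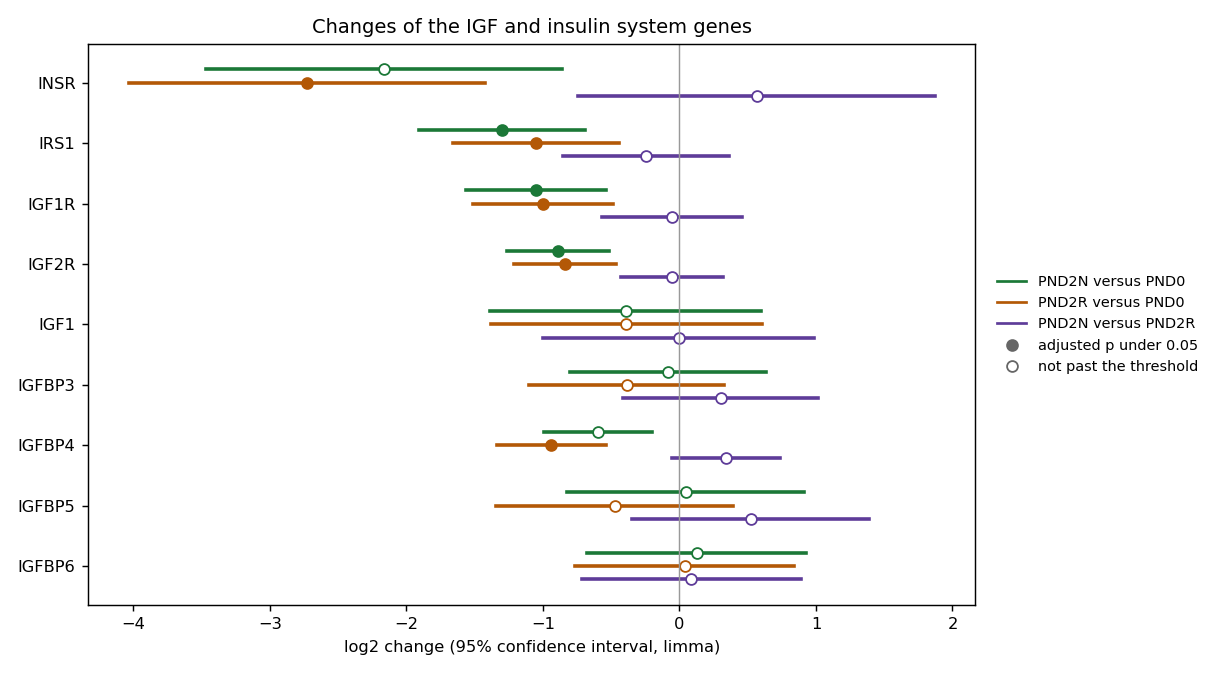
Log2 changes of the 9 members (horizontal axis) with 95% confidence intervals from limma, for nursed and replacer-fed gilts against birth and for nursed against replacer-fed gilts; filled points have an adjusted p under 0.05. The receptors, IRS1 and IGFBP4 lie left of 0 against birth, and every interval of the nursed against replacer-fed comparison includes 0.

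IGF1 itself did not pass in either comparison, and its newborn libraries split into a low and a high pair. The gene lies on chromosome 5, 84724991 to 84791948, minus strand. It read 1304, 995, 4992 and 4119 in PND0 1 to 4, 1947, 1869, 1911 and 1282 in PND2N 1 to 4, and 1338, 1884, 2434 and 1479 in PND2R 1 to 4. The day 2 values lay between the low and the high newborn pair, except 1282 in PND2N 4, which lay within the low pair. The means were 2853 ± 2003, 1752 ± 315 and 1784 ± 491, with changes of -0.40 ± 0.46 in PND2N (adjusted p = 0.592) and -0.39 ± 0.46 in PND2R (adjusted p = 0.548). The size of the IGF1 change rested on single newborn libraries: it was -0.79 in either comparison without PND0 2, and -0.017 in PND2N and -0.010 in PND2R without PND0 3, and it did not pass in any fit that left out a library. With the 3 libraries of high DES dropped it was -0.69 in PND2R (adjusted p = 0.517).

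In the newborn libraries IGF1 was low where epithelial markers were high. The 9 matched epithelial markers of 12 summed to 106200, 110735, 30614 and 23905 in PND0 1 to 4, and the simple epithelial keratin KRT8 alone was 49821, 51645, 14444 and 11100. The sums ran from 51373 to 95781 in PND2N and from 74429 to 94762 in PND2R, and no marker of the list was below 10 in every library. The day 2 libraries did not share the newborn pattern as a set. The highest sum of each group, in PND2N 1 and PND2R 3, came with the highest IGF1 of that group (1947 and 2434). PND2N 4, with a sum of 85586, had the lowest IGF1 of day 2 (1282). The stromal sum was 391017, 460495, 503801 and 526116 in the same newborn libraries. The part of the epithelial and stromal share in the IGF1 values was not tested.

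**Figure D4:**
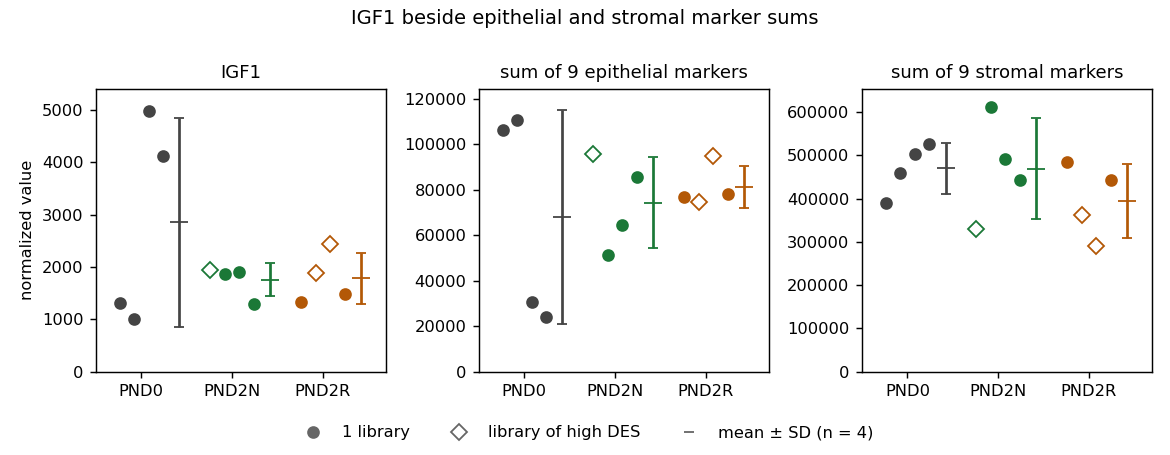
IGF1, the sum of 9 epithelial markers and the sum of 9 stromal markers in each library (normalized values on linear vertical axes from 0) with mean ± SD of 4 gilts. The newborn libraries with IGF1 of 4992 and 4119 have epithelial sums of 30614 and 23905, and those with IGF1 of 1304 and 995 have sums of 106200 and 110735.

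Of the binding protein genes, IGFBP4 was the one that fell. Its product blocks IGF action until it is cleaved by the protease PAPPA. The gene (chromosome 12, 23190380 to 23203856, minus strand) stood at 3126, 3958, 3182 and 3946 at birth, 2102, 3055, 2516 and 1843 in PND2N 1 to 4, and 1789, 2327, 1684 and 1643 in PND2R 1 to 4. The highest day 2 value was just under the lowest newborn one, and the 3 libraries of high DES were spread among the others. Means were 3553 ± 461, 2379 ± 529 and 1861 ± 317. IGFBP4 fell by 0.94 ± 0.18 in PND2R (adjusted p = 0.0124), a call that held whichever library was left out and when the 3 libraries of high DES were dropped (adjusted p = 0.0482). In PND2N its change was -0.60 ± 0.18 (adjusted p = 0.0860).

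IGFBP3, the main carrier of IGFs in blood (chromosome 18, 53754723 to 53760030, plus strand), was 833, 729, 852 and 1052 at birth, 462, 1149, 1019 and 792 in PND2N 1 to 4, and 658, 1022, 376 and 734 in PND2R 1 to 4. The groups overlapped throughout, with a change of -0.086 ± 0.33 in PND2N (adjusted p = 0.889) and -0.39 ± 0.33 in PND2R (adjusted p = 0.401). IGFBP5, a binding protein that attaches to matrix (chromosome 15, 126915880 to 126944109, minus strand), was 2246, 1410.1, 2410.02 and 3226 at birth, 1166, 3677, 4207 and 1551 in PND2N 1 to 4, and 1786, 1889, 1118 and 1745 in PND2R 1 to 4. The nursed libraries covered the widest range, with values both below and above all newborn ones, and the changes were 0.046 ± 0.40 and -0.48 ± 0.40 (adjusted p = 0.955 and adjusted p = 0.394).

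IGFBP6, which binds IGF2 in preference to IGF1, was the only member with all 3 libraries of high DES above the rest of day 2. The gene (chromosome 5, 19640605 to 19644535, minus strand) stood at 2385, 2482, 2130.4 and 1535 at birth, 4332, 2059, 1854 and 1657 in PND2N 1 to 4, and 1294, 2915, 3701 and 1551 in PND2R 1 to 4. The 3 libraries held 2915 to 4332 and the other 5 held 1294 to 2059, with the newborn range of 1535 to 2482 overlapping the latter. Its changes of 0.13 ± 0.37 and 0.040 ± 0.37 did not pass (adjusted p = 0.851 and adjusted p = 0.948), and both turned negative without the 3 libraries (-0.18 and -0.57).

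Nursing and milk replacer were compared directly on day 2 as PND2N versus PND2R. None of the 9 members passed in limma, none had an unadjusted p under 0.05, and 0.0119% of all genes tested (2 of 16862) were called. The 4 nursed and 4 replacer-fed libraries overlapped in every member, where 2.55% of all genes had no overlap. The intervals leave room for differences of some size. The 95% interval of the log2 difference was -0.57 to 0.46 for IGF1R, -0.43 to 0.32 for IGF2R, -0.86 to 0.36 for IRS1 and -0.74 to 1.87 for INSR. For IGFBP4, called against birth with replacer and not with nursing, the difference was 0.34 ± 0.18 with an interval of -0.054 to 0.74 (adjusted p = 0.9996). For INSR it was 0.56 ± 0.60 (adjusted p = 0.9996). Neither gene was thus shown to respond differently to the feedings. IGFBP5, at 2650.3 ± 1515 in nursed and 1635 ± 349.5 in replacer-fed gilts, had a difference of 0.52 with an interval of -0.35 to 1.39.

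Likeness between genes was described by the root mean square difference of their log2 values over the 12 libraries, each gene centred on its own mean, with no test. Among the 9 members the pairs most alike were IGF1R with IGF2R (0.19), IGF1R with IRS1 (0.24) and IGF2R with IRS1 (0.26), and the least alike were INSR with IGFBP6 (1.77). Outside the members, 11117 named genes with a mean of at least 10 were compared. IGF1R was nearest to RNF44, a RING finger gene (0.14), the actin-binding gene ABLIM1 (0.18) and ANKRD12 (0.18), where the spread of IGF1R itself was 0.57. INSR, with a spread of 1.43, was near to ZCCHC14 (0.24) and the histone deacetylase gene HDAC4 (0.25). HDAC4 was 221 to 313 at birth and 24.2, 21.4 and 18.6 in the 3 libraries of high DES. IGF1, with a spread of 0.66, was nearest to SAMD5 (0.17), the neuronal membrane gene SLITRK2 (0.22) and an entry that RefSeq names TIGIT, an immune receptor gene (0.23). SAMD5 stood at 109, 113, 486 and 331 in PND0 1 to 4, the same split of low and high newborn pairs as IGF1. All these genes were read in the same 12 libraries, 3 of which stand apart in DES.

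The rest of the pathway was read from a list of 97 genes by role, of which 79 were matched and 77 tested. In PND2N none rose and 3 fell (INPPL1, TSC2 and RPTOR), with a median log2 change of -0.14. In PND2R 2 rose and 10 fell, with a median of -0.23. These are to be read against the 1.41% and 1.91% (PND2N) and the 7.31% and 7.7% (PND2R) of all genes called lower and higher. Without the 3 libraries of high DES none passed in PND2N and 1, INPPL1, in PND2R. IGF2, insulin and IRS2 were not analysed here.

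**Figure D5:**
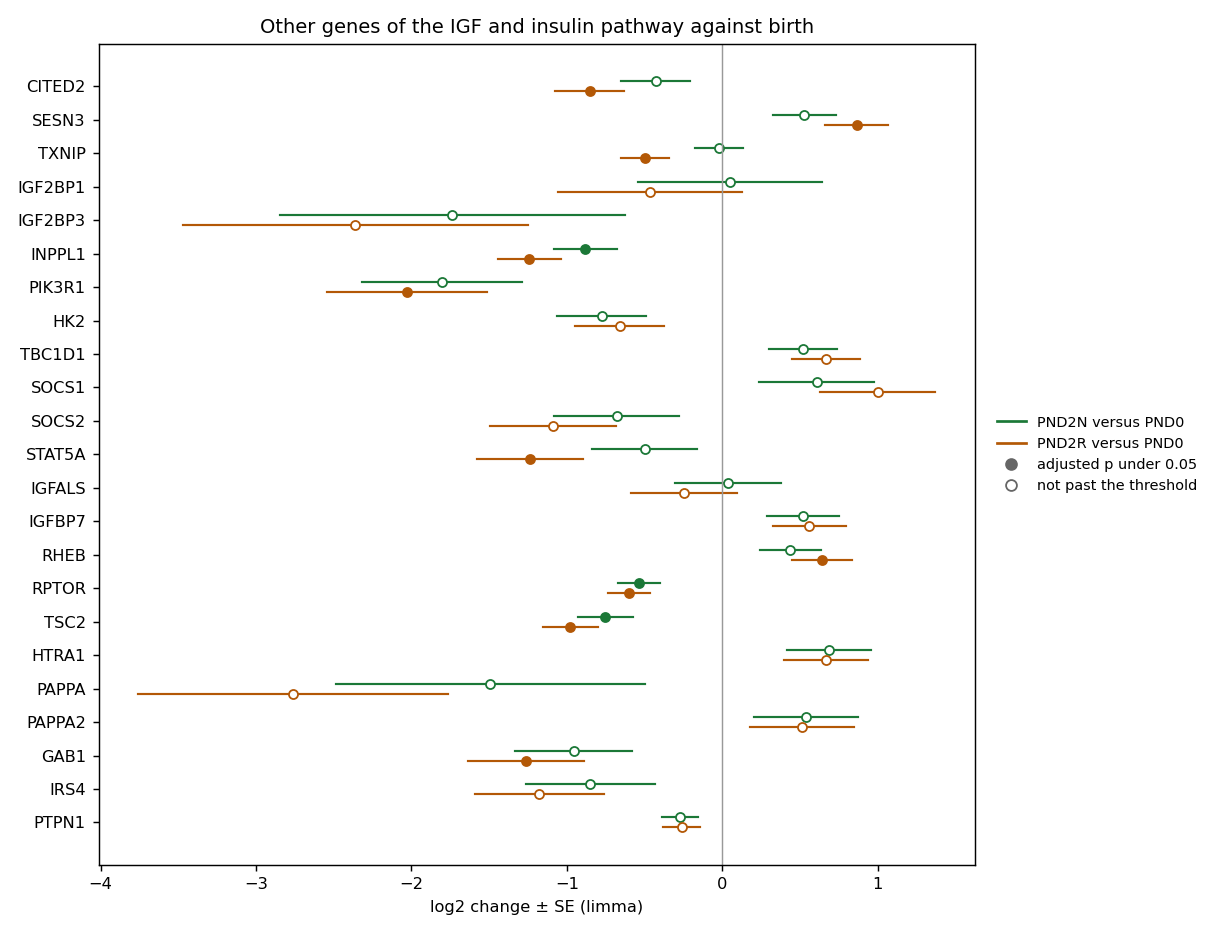
Log2 changes ± SE (horizontal axis, limma) of other pathway genes in PND2N and PND2R against PND0, grouped by role from top to bottom; filled points have an adjusted p under 0.05. INPPL1, TSC2 and RPTOR are filled in both comparisons, and SESN3 and RHEB are the filled points right of 0.

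Among other binding proteins, 2 of the 4 matched genes were tested and neither passed. IGFBP7, a low-affinity binding protein of vessels and stroma, was 12431 ± 1154 at birth, 18524 ± 5699 in nursed and 18614 ± 4099 in replacer-fed gilts (adjusted p = 0.199 and adjusted p = 0.107), and both changes passed without PND2N 3 (adjusted p = 0.0476 and adjusted p = 0.0464). IGFALS, which stabilises IGF complexes in blood, was 1264 ± 159.9, 1381 ± 615 and 1145 ± 498 (adjusted p = 0.956 and adjusted p = 0.621). Both were higher in the 3 libraries of high DES than in the other 5 of day 2, at 22043 to 24481 against 10859 to 20312 for IGFBP7. IGFBP1 was at most 3.67 in every library.

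None of the 7 proteases of binding proteins and their inhibitors passed in either comparison. PAPPA, which cleaves IGFBP4, was 79.0, 35.0, 104 and 142 in PND0 1 to 4, 6.25, 67.5, 60.1 and 21.7 in PND2N 1 to 4, and 36.5, 1, 5.50 and 40.9 in PND2R 1 to 4. The 3 libraries of high DES were at or under 6.25 and the other 5 were between 21.7 and 67.5, and the changes were -1.49 ± 1.00 and -2.76 ± 1.00 (adjusted p = 0.357 and adjusted p = 0.0735). The PAPPA change in PND2R passed without PND2N 1 or PND2R 1 (down to adjusted p = 0.0439). Its relative PAPPA2, which cleaves IGFBP3 and IGFBP5, had a change of 0.54 ± 0.34 in PND2N (adjusted p = 0.327) and 0.51 ± 0.34 in PND2R (adjusted p = 0.274). The serine protease HTRA1 was 5135 ± 2067 at birth, 7876 ± 1608 with nursing (adjusted p = 0.153) and 7762 ± 1503 with replacer (adjusted p = 0.1002).

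Of the 6 growth hormone axis genes tested, 1 fell in PND2R and none in PND2N. It was STAT5A, a transcription factor that growth hormone and prolactin activate, at 349 ± 9.23 at birth and 157 ± 56.9 in replacer-fed gilts (-1.24 ± 0.34, adjusted p = 0.0331), with 258 ± 79.0 in nursed gilts (adjusted p = 0.367). The STAT5A call ended without any 1 newborn library, PND2R 2 or PND2R 3 (adjusted p up to 0.0896). The feedback inhibitors SOCS2 and SOCS1 had changes of -1.09 ± 0.40 and 1.00 ± 0.37 in PND2R without passing (adjusted p = 0.0788 and adjusted p = 0.0796), and -0.68 ± 0.40 and 0.61 ± 0.37 in PND2N (adjusted p = 0.309 and adjusted p = 0.320). SOCS2 passed in PND2R without PND2N 1 (adjusted p = 0.0346) and with only the compared groups in the fit. Neither of the 2 tested genes of IGF2 mRNA binding proteins passed. IGF2BP3, one of them, was 66.2 to 109 at birth, 1.78 to 3.71 in the 3 libraries of high DES and 19.2 to 91.5 in the other 5 (adjusted p = 0.339 and adjusted p = 0.143). The other, IGF2BP1, was at most 12.1 in every library (adjusted p = 0.966 and adjusted p = 0.583).

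Among 13 receptor adaptors and regulators, 1 fell in PND2R and none in PND2N. GAB1, a docking protein beside IRS, went from 1232 ± 247 at birth to 541 ± 223 with replacer (-1.26 ± 0.38, adjusted p = 0.0433) and was 683 ± 299 with nursing (adjusted p = 0.153). The call ended without any 1 newborn library, PND2N 4, PND2R 2 or PND2R 3 (adjusted p up to 0.128). IRS4, another IRS adaptor, had changes of -0.85 ± 0.42 and -1.18 ± 0.42 (adjusted p = 0.233 and adjusted p = 0.0695), with a pass in PND2R without PND2N 1 or PND2R 1, and PTPN1, the phosphatase that dephosphorylates the insulin receptor, of -0.27 ± 0.12 and -0.26 ± 0.12 (adjusted p = 0.186 and adjusted p = 0.128).

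Among 12 PI3 kinase and AKT genes tested, INPPL1 fell in both comparisons and PIK3R1 in PND2R. INPPL1 encodes the lipid phosphatase SHIP2, which lowers insulin signalling. It was 7908, 8419, 10026 and 11095 at birth, 3892, 6334, 6018 and 4343 in PND2N 1 to 4, and 4792, 3596, 3051 and 4497 in PND2R 1 to 4. No day 2 library reached the newborn range. INPPL1 fell by 0.88 ± 0.20 in PND2N (adjusted p = 0.0407) and by 1.24 ± 0.20 in PND2R (adjusted p = 0.00724), the latter whichever library was left out and with the 3 libraries of high DES dropped (adjusted p = 0.0439), the former not without them (adjusted p = 0.0576), nor with only the compared groups in the fit, nor in 9 of the 12 fits that left out a library (all but PND2N 3, PND2R 1 and PND2R 3). PIK3R1, the regulatory subunit that IRS proteins bind, fell from 456.5 ± 84.1 to 127 ± 73.7 in PND2R (-2.03 ± 0.51, adjusted p = 0.0259) and was 151 ± 94.0 in PND2N (adjusted p = 0.0724), where it passed without PND2N 3 and under quantile normalization. The 3 libraries of high DES held the lowest day 2 values of PIK3R1, at 55.1 to 64.6, and without them its PND2R change was -1.24 (adjusted p = 0.0997). The PIK3R1 call also ended without PND0 3 or 4, PND2R 2 or PND2R 3.

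In the mTOR group of 15 genes, 2 fell in PND2N, and 2 fell and 1 rose in PND2R. TSC2, a brake on mTOR, was 6926 ± 1897 at birth, 4001 ± 205 in PND2N and 3426 ± 289 in PND2R (-0.75 ± 0.18, adjusted p = 0.0441, and -0.98 ± 0.18, adjusted p = 0.00977). RPTOR, the scaffold of mTOR complex 1, was 3268 ± 414, 2248 ± 213 and 2144 ± 133 (-0.54 ± 0.13, adjusted p = 0.0497, and -0.60 ± 0.13, adjusted p = 0.0177). RHEB, the small GTPase that TSC2 restrains and that activates mTOR, rose from 3778 ± 548 to 5963 ± 1369.9 in PND2R (0.64 ± 0.19, adjusted p = 0.0460), with 5149.55 ± 964 in PND2N (adjusted p = 0.194). The PND2N calls on TSC2 and RPTOR were each lost in at least 10 of the 12 fits that left out a library, holding without PND0 1 or 2 for TSC2 and without PND0 3 for RPTOR. Both also ended with only the compared groups in the fit, and RPTOR with 0.1 added (adjusted p = 0.0508) and under TMM scaling (adjusted p = 0.0534). In PND2R the TSC2 call held whichever library was left out, RPTOR was lost without PND2R 3 (adjusted p = 0.0562), and RHEB held only without PND2N 1, PND2N 3 or PND2R 1 and not with only the compared groups in the fit. Without the 3 libraries of high DES all these calls ended, with PND2R changes of -0.88, -0.65 and 0.36 for TSC2, RPTOR and RHEB.

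FOXO factors, which insulin signalling keeps out of the nucleus, and genes they are known to induce made up a list of 12 tested genes. None passed in PND2N, and in PND2R 2 fell and 1 rose. SESN3, a stress-induced inhibitor of mTOR complex 1, rose from 3907 ± 1029 to 6935 ± 257 in PND2R (0.87 ± 0.20, adjusted p = 0.0215) and was 5590.3 ± 1157 in PND2N (adjusted p = 0.146). CITED2, a transcriptional regulator, fell from 3657 ± 636 to 2074 ± 626 in PND2R (adjusted p = 0.0281) and was 2719 ± 468 in PND2N (adjusted p = 0.258). TXNIP, which restrains glucose uptake, fell by 0.49 ± 0.15 in PND2R (adjusted p = 0.0495) and had a change of -0.022 ± 0.15 in PND2N (adjusted p = 0.942). The TXNIP call ended under TMM scaling (adjusted p = 0.0546), under quantile normalization (adjusted p = 0.0573), with 0.1 added before the logarithm and in 10 of the 12 fits that left out a library (all but PND2N 1 and PND2R 1). Without the 3 libraries of high DES none of the 3 calls held. SESN3 was also lost without PND2R 2 or 3, and CITED2 without PND0 1 or 3 or PND2R 2 or 3.

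Among 8 glucose and metabolic effectors tested, none passed in PND2N. TBC1D1, a regulator of glucose transporter traffic, had changes of 0.52 ± 0.22 and 0.67 ± 0.22 (adjusted p = 0.177 and adjusted p = 0.0570), with a pass in PND2R without PND2N 1 or PND2R 1 and with only the compared groups in the fit, and the hexokinase gene HK2 of -0.78 ± 0.29 and -0.66 ± 0.29 (adjusted p = 0.134 and adjusted p = 0.117).

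Between nursed and replacer-fed gilts none of the 77 tested pathway genes passed in limma, and 2 had an unadjusted p under 0.05, a share no larger than the 2.68% of all genes tested (452 of 16862). They were TXNIP and PDK4, the kinase that shuts off pyruvate oxidation during fasting, and PDK4 was chosen after its values were seen. PDK4 was 1771 ± 758 with nursing and 866 ± 457 with replacer, a difference of 1.09 ± 0.47 (adjusted p = 0.9996). TXNIP was 36035 ± 6263 and 25861 ± 3522, a difference of 0.47 ± 0.15 (adjusted p = 0.9996).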

How the data were processed

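The deposited table held 1 value per gene and library as signal, normalized by the authors on a linear scale by a method not given in the sources used here. Per the submitters' processing notes, bcl2fastq was used and the genome was Sscrofa10.2. Counts are not in the table, so no count model and no binomial interval were used. Sequencing depth is not known, as the totals given are sums of normalized values. Columns were matched to gilts by library number. Symbols came from the table or, for placeholders, by gene identifier from RefSeq (Sscrofa11.1, names only, 14468 of 20390 entries). IGF2BP2 was left out because table and RefSeq disagree, as was ESR1, which has more than 1 row.

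Values were taken as log2(value + 1), and genes above 1 in at least 4 libraries (16862) were fitted in limma 3.58.1 (R 4.3.3, statmod 1.5.0; trended, robust empirical Bayes; two-sided; no covariate, as no litter, date or batch is labelled). The fit was tested on simulated data. Tables and figures used matplotlib 3.10.9, pandas 2.3.3 and numpy 2.4.6 under Python 3.11.15. Members, lists, tests and alternatives were chosen with earlier results of these data known. The genes named are all members, other pathway genes past the threshold in any comparison, up to 3 per role with the smallest p against birth, and the 3 nearest patterns of IGF1, IGF1R and INSR. A few genes that the rule names are not reported here, though list counts include them. Alternatives were 0.1 or 5 added, no filter, TMM scaling, quantile normalization, only the compared groups and each library left out. A fit without 3 libraries of high DES was chosen after seeing the data, and it keeps only PND2R 1 and PND2R 4 of the replacer-fed libraries.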

Additional observations from a re-analysis of the deposited data

Results flagged for a closer look

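In 3 of 37 groups of 4 libraries (members and like entries) the highest or the lowest library stood far from the other 3, its gap taking more of the group's range than Dixon's 95% critical value allows. Chance alone gives about 1 in 20 such groups. IGF1 was 1282 in PND2N 4 and 1869 to 1947 in the other nursed libraries. IGF1R was 1184 in PND2N 1 and 1486 to 1516 in the others, and IGFBP6 was 4332 in PND2N 1 and 1657 to 2059 in the others. In 1 more group 3 libraries were tied at the lowest value, where any higher value stands apart by construction: the entry LOC100627985 was 1.11 in PND2R 1, and nothing is read from it.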

How the results depend on the processing

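The number of members called against birth was 3 in PND2N and 5 in PND2R, and leaving out each library in turn gave 0 to 3 and 2 to 5. With only the compared groups in the fit 0 members passed in PND2N, and without the 3 libraries of high DES 2 passed in PND2R (INSR and IGFBP4); the cause was not tested. Other pathway genes called were 3 and 12, with 0 to 3 and 2 to 19 when a library was left out, 0 in PND2N with only the compared groups, and 0 and 1 without the 3 libraries. Over all genes 560, 2531 and 2 passed (PND2N and PND2R against birth, and PND2N versus PND2R), with 26 to 661, 543 to 4109 and 1 to 3 when a library was left out. With only the compared groups 7 passed in PND2N and 1 in PND2N versus PND2R, and without the 3 libraries 275, 284 and 6. Of 1677 recomputed changes of named genes, 1464 kept direction and side of the threshold, 153 lost and 16 gained a call, and 44 changed sign, all of them changes that had not passed.

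Changes of sign in PND2N against birth were 0.18 for IGFBP3, -0.18 for IGFBP6, -0.23 for IGFALS, -0.54 for IGF2BP1 and 0.076 for TXNIP without the 3 libraries, -0.0070 for IGFBP5 and -0.036 for IGFALS under quantile normalization, and -0.061 for IGF2BP1 with 0.1 added. In PND2R they were -0.57 for IGFBP6 without the 3 libraries, and -0.046 for IGFBP6 and 0.0076 for IGF2BP1 under quantile normalization. In PND2N versus PND2R they were 0.24 for IGF1 and -0.28 for LOC100526036 without the 3 libraries. With a library left out, the PND2N changes ran from -0.25 to 0.18 for IGFBP3, -0.24 to 0.37 for IGFBP5, -0.18 to 0.28 for IGFBP6, -0.23 to 0.25 for IGFALS, -0.54 to 0.36 for IGF2BP1 and -0.11 to 0.076 for TXNIP, and the PND2R change of IGFBP6 from -0.22 to 0.29. The PND2N versus PND2R differences ran from -0.13 to 0.16 for IGF1, -0.28 to 0.089 for IGF1R, -0.15 to 0.068 for IGF2R, -0.22 to 0.34 for IGFBP6 and -0.045 to 1.21 for LOC100526036. No paired analysis was possible because the labels give no replicate numbers that link gilts of different groups. Changes of genes near the lowest value, such as PAPPA in the 3 libraries of high DES (1 to 6.25), are to be read with caution. The part of sequencing depth in them was not tested.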
